A study of Mus musculus with 12 samples.

Results

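The lysosome is the acidic compartment in which macrophages break down what they engulf and what autophagy delivers. Its soluble hydrolases (proteases, glycosidases, sulfatases and lipases) work at low pH, which a proton pump, the vacuolar ATPase (V-ATPase), maintains, and its membrane carries heavily glycosylated proteins, ion channels and transporters. Many of these genes share a short promoter word, an E-box bound by transcription factors of the TFEB family (Tfeb, Tfe3, Mitf and Tfec). The genes described here were chosen by symbol, from a fixed list and not by a threshold on their values: 42 mouse genes of 43626 gene entries counted, made up of 10 proteases, 8 glycosidases, 8 sulfatase, lipid enzymes and activators, 7 membrane proteins, 6 proton pump genes and 3 TFEB-family factors. All 42 were expressed highly enough to be tested among 14308 genes.

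Bone marrow–derived macrophages (BMDMs), which are grown from mouse bone marrow precursors in culture, were measured by RNA-Seq in 12 libraries, 3 for each of 4 conditions. The conditions were PBS (quiescent cells), the milk oligosaccharide 3′-sialyllactose alone (3′SL, which the labels call HMO), lipopolysaccharide alone (LPS, the bacterial ligand of TLR4), and LPS with 3′SL. According to the methods of the study, LPS was given at 10 ng/mL and 3′SL at 100 µg/mL for 6 hours. The treatment field of the sample records instead describes mice injected with 3′SL, which conflicts with treated cultures, so the doses and the time rest on the study's text. The strain, sex and age of the marrow donors were not given in the sources used here. The study describes its RNA-Seq replicates as biologically independent, but the labels tie no library to a mouse or culture, and p-values measure the spread between these libraries.

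Between 20411741 and 26851890 reads per library were assigned to genes. The library numbers run in 3 sets of 4, each holding every condition once, and after removing the condition means libraries correlated within a set (mean r = 0.596). Between sets the mean r was −0.296. Removing the mean of 3 libraries a condition pushes this value below 0 by itself, so it does not measure how the sets relate. The libraries of set 1 held more stromal fibroblast transcripts (12 markers, summed level 1132 to 1333 CPM, counts scaled to library size, against 112.3 to 316.9 CPM in sets 2 and 3), and neutrophil and granule precursor transcripts ran from 78.9 to 565 CPM, highest in LPS libraries of set 3. All 8 macrophage markers were present in every library (summed level 16410 to 29890 CPM), whereas dendritic cell markers reached at most 17.8 CPM and mast cell and basophil markers at most 3.06 CPM. In bulk RNA, fewer cells of a type and less RNA per cell cannot be told apart. A gene is called changed below where edgeR's quasi-likelihood test gave a Benjamini-Hochberg adjusted p under 0.05 over all genes tested and the change was at least 1.5-fold. This main fit had no term for the library set, so differences between sets shared by all conditions counted as spread. edgeR's common coefficient of variation between replicates was 0.31 in it, and 0.133 with the set as a block. Misses of the threshold in the main fit are to be read with this in mind. CPM are scaled by edgeR's TMM factors unless stated.

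Promoters were searched for the E-box. RefSeq promoter windows (250 bases before to 50 after the start, GRCm38.p6) matched 36 of the 42 members. The E-box core CACGTG, which reads the same on both strands, lay in the windows of 13 of these 36 (36.1%), against 8.09% of 27025 genes with a window and 11.7% of 10089 such genes that were tested. The longer word TCACGTG, searched on both strands and always containing the core, was present in 12 of 36 (33.3%) against 4.29% of all genes and 7.0% of the tested ones, and the palindrome TCACGTGA in 7 of 36 (19.4%) against 1.125% of all genes and 2.2% of the tested ones. A match is a description of the letters in this window, not evidence of binding. Asah1, Atp6v0d2, Atp6v1b2, Atp6v1h, Ctsb and Ctsh had no window in the table. The stretches of 5 members are shown, each lying wholly before the annotated gene in both RefSeq and GENCODE, with the E-box core in capitals. Clcn7 is shown because it is the one member with the word whose transcript was called changed by LPS, Lamp1 because it holds 4 copies, Gla because its stretch holds a pair, and Glb1 and Gaa as glycosidases with a single copy. Clcn7 holds a further copy, within TCACGTGA, just after the start and outside the stretch shown. The windows of Ctsa, Ctsd and Mcoln1 also hold a pair.
Clcn7, chr17:25133356-25133390, plus strand: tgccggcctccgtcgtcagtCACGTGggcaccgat
Lamp1, chr8:13159080-13159160, plus strand: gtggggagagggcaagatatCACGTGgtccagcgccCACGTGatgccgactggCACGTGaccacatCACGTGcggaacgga
Gla, chrX:134601174-134601252, minus strand: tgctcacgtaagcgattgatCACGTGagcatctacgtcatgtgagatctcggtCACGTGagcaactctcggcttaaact
Glb1, chr9:114401010-114401055, plus strand: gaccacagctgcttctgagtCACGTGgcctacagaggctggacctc
Gaa, chr11:119267803-119267848, plus strand: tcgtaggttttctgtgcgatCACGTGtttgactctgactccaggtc

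Levels per length of exon spanned 3 orders of magnitude in quiescent cells. The aspartic protease Ctsd (cathepsin D) was the most abundant at 7210 ± 261 CPM per kb (SD, n = 3), although it shares 34.4% of its exon bases with the overlapping gene Gm49369, which the count table does not list. Psap, the precursor of the saposins that present lipids to hydrolases, followed at 4101 ± 97.1 CPM per kb and the cysteine protease Ctsb at 2885 ± 145 CPM per kb. The macrophage glycoprotein Cd68 (1202 ± 65.1), Lamp1 (748 ± 75.4) and the progranulin gene Grn (705 ± 52.2 CPM per kb) came next, and the last 2 did not differ beyond their spread. At the other end, Tfeb stood at 6.57 ± 0.451, the acid sphingomyelinase Smpd1 at 6.19 ± 1.37, the calcium channel Mcoln1 at 4.08 ± 0.863 and Ctsk, the collagen-degrading protease of osteoclasts, at 3.34 ± 0.747 CPM per kb, and each of these overlapped with its neighbour in the order within 1 SD. Together the 42 genes took 8.063% to 9.08% of all reads assigned to genes in the PBS libraries, and 5.604% to 6.604% with LPS alone. For the proteases these shares were 4.775% to 5.484% with PBS and 3.282% to 3.947% with LPS alone. Over the libraries of all 4 conditions the 42 genes took 5.60% to 9.08%, and the proteases 3.27% to 5.48%.

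**Figure D1:**
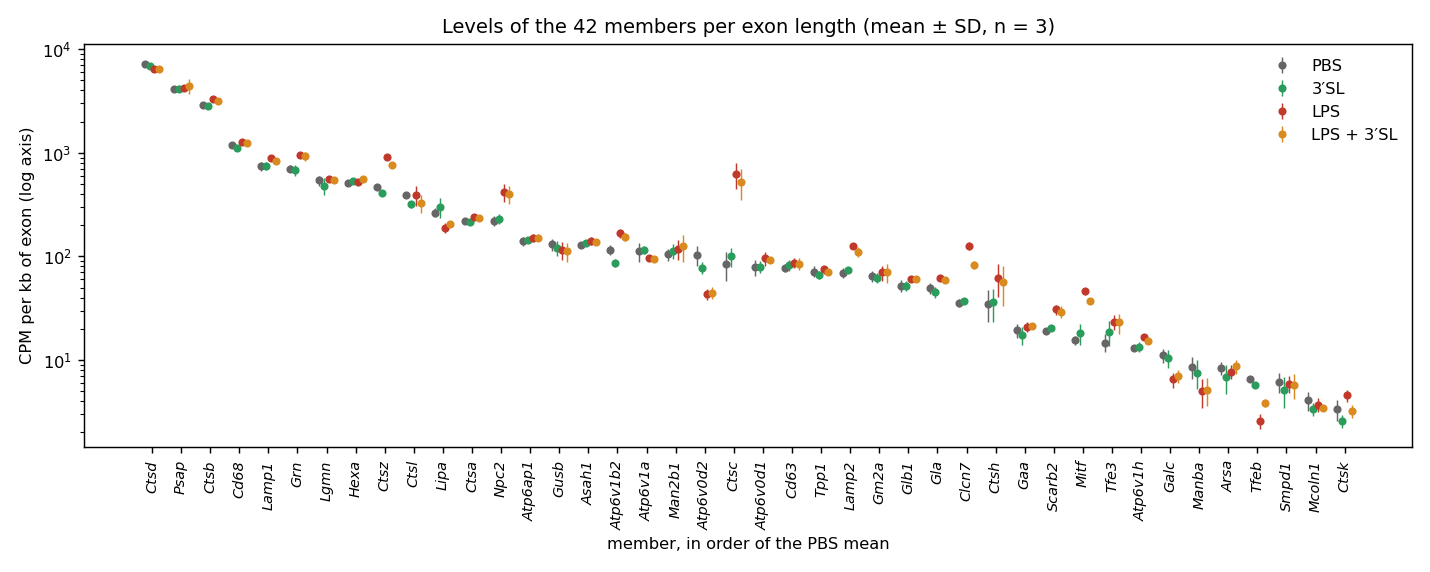
Mean level ± SD (n = 3 libraries) of each of the 42 members in CPM per kb of exon, on a log axis, in the 4 conditions, ordered by the PBS mean. The order runs from Ctsd (7210 CPM per kb in PBS) to Ctsk (3.34 CPM per kb). Ctsc, Clcn7 and Mitf sit higher and Atp6v0d2 and Tfeb lower in the libraries with LPS.

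LPS alone was compared with PBS to see what stimulation did to the lysosomal programme. Of the 42 members, 8 were called higher and 3 lower (26.2%), against 38.5% of all genes tested (18.3% higher and 20.2% lower), so that the members were not called more often than genes at large. The members called higher were the proteases Ctsc and Ctsz, the cholesterol carrier Npc2, the membrane proteins Lamp2, Scarb2 and Clcn7, and the factors Tfe3 and Mitf. The 3 called lower were the glycosidase Galc, the pump subunit Atp6v0d2 and Tfeb. The median change of the members was 0.12 on the log2 scale against −0.06 for all genes, and 21 of the 42 moved by less than 0.25. Scaling by total counts in place of TMM shifted the median of all genes to −0.71 and that of the members to −0.53. The distance between members and all genes stayed at 0.18 under both. With total counts 3 members (Ctsc, Clcn7 and Mitf) were called higher and 14 lower. That scaling called 8192 of all 14308 genes tested in either direction.

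**Figure D2:**
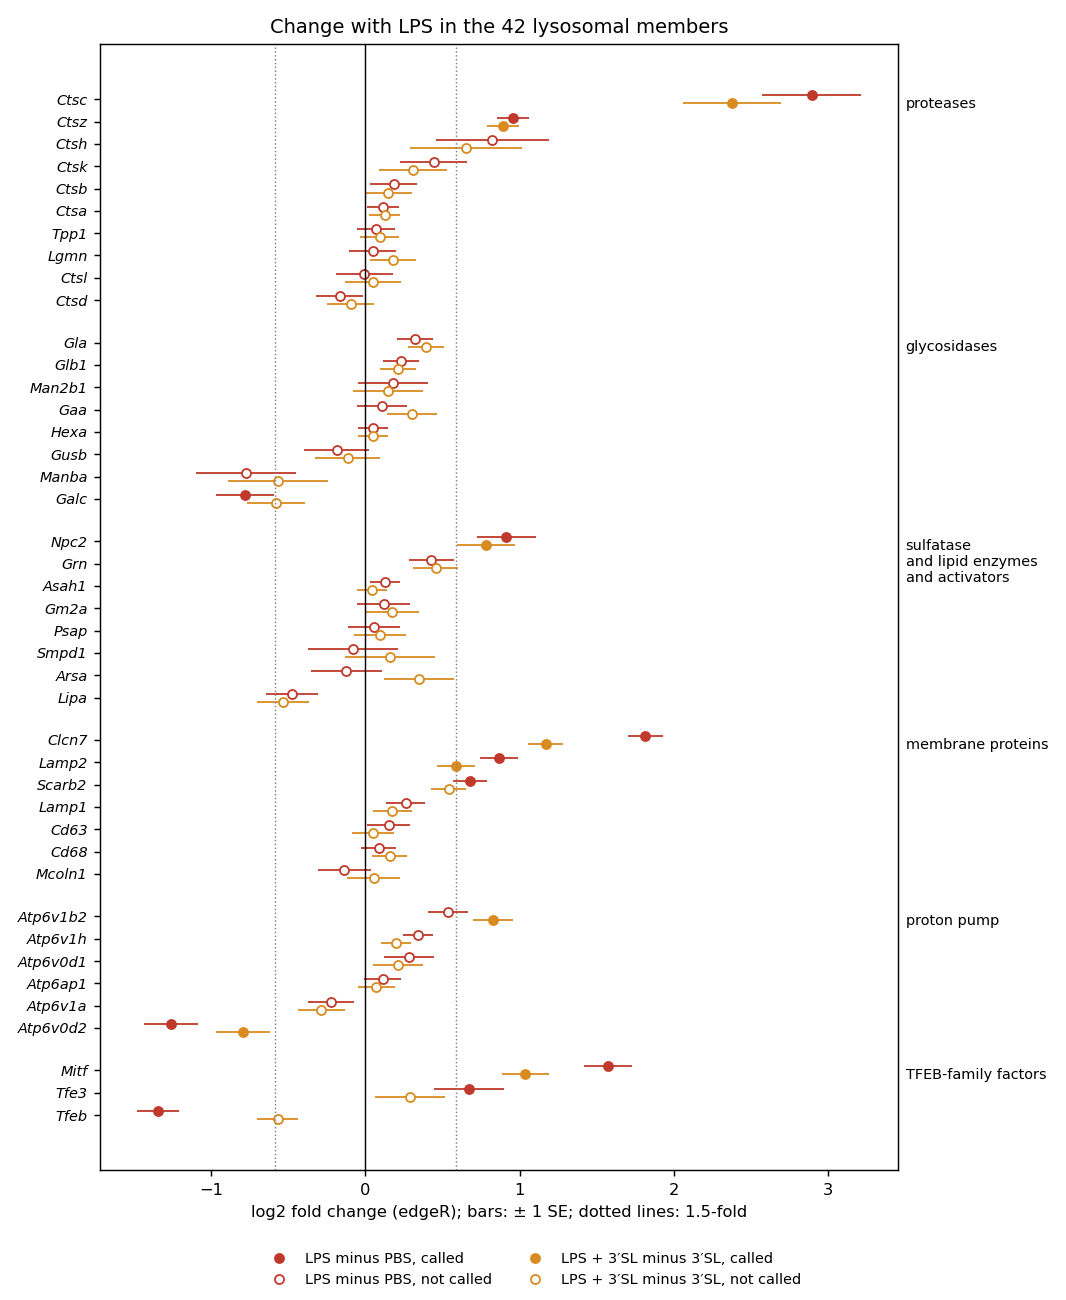
Log2 fold change (± 1 SE, edgeR fit over 12 libraries) of each member for LPS minus PBS (red) and for LPS + 3′SL minus 3′SL (orange), by role, with filled points for called members and dotted lines at 1.5-fold. Ctsc has the largest rise (2.89 without and 2.38 with 3′SL), and Tfeb and Atp6v0d2 the largest falls with LPS alone (−1.35 and −1.26).

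Within the TFEB family, transcripts moved in opposite directions. Tfeb, a regulator of lysosome formation (chr17:47737030-47792419 in GRCm38, plus strand), stood at 34.5, 37.7 and 39.6 CPM in the PBS libraries of sets 1, 2 and 3 and at 12.2, 14.7 and 17.1 CPM with LPS. The LPS values lay below every PBS value, a change of −1.35 ± 0.14 (log2, SE; edgeR adjusted p = 1.93e-05). Mitf, the family member that drives pigment cell and osteoclast programmes (chr6:97807052-98021349, plus strand), went the other way. Its PBS libraries held 88.2, 93.8 and 106 CPM and its LPS libraries 262, 295 and 301 CPM, a rise of 1.57 ± 0.15 (edgeR adjusted p = 1.57e-05) with no overlap. Tfe3, the most abundant of the 3 in PBS by CPM but level with Mitf per kb (14.8 ± 2.88 against 15.5 ± 1.498 CPM per kb), held 117, 126 and 167 CPM with PBS and 188, 207 and 257 CPM with LPS. Its rise of 0.67 ± 0.23 (edgeR adjusted p = 0.0309) had every LPS library above every PBS library, but the call was lost when LPS replicate 3 (0.53), PBS replicate 1 (0.57), PBS replicate 2 (0.61) or LPS replicate 2 (0.70) was left out, and the change was 0.01 when scaled by total counts. Tfec, the fourth family member, which is largely restricted to macrophages and osteoclasts and was listed here as context, rose from 25.2, 27.4 and 27.7 CPM to 141, 177 and 228 CPM. That change of 2.76 ± 0.31 (edgeR adjusted p = 4.21e-05) was the largest in the family.

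**Figure D3:**
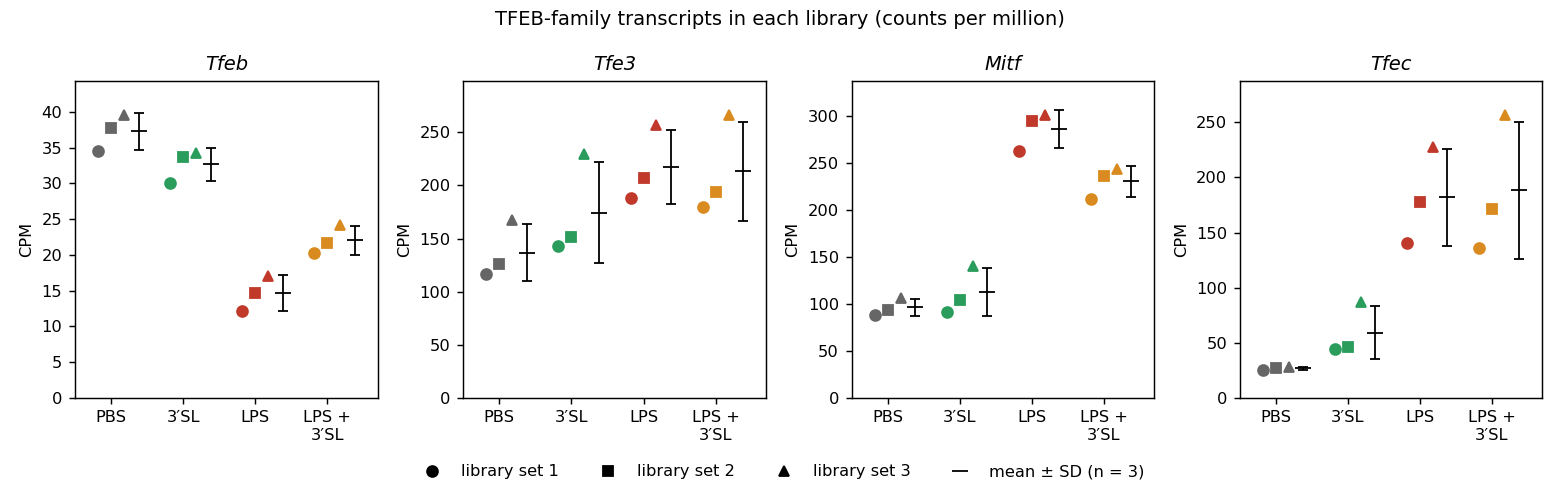
CPM of Tfeb, Tfe3, Mitf and Tfec in each library by condition, with marker shapes for the 3 library sets and black bars for the mean ± SD (n = 3). Tfeb falls with LPS from between 34.5 and 39.6 to between 12.2 and 17.1 CPM and sits between them with LPS + 3′SL, whereas Mitf and Tfec are higher in every library with LPS.

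Genes that act on Tfeb, mostly through the kinase mTORC1, which keeps it in the cytosol, were counted as a list of 19 that also includes Tfec. The list mixes parts and activators of mTORC1 with its inhibitors and with a subunit of the phosphatase calcineurin, which releases Tfeb to the nucleus, so its counts carry no single direction. With LPS, 1 was called higher and 5 lower, against 18.3% of all genes tested called higher and 20.2% lower. Tfec is the one that rose, and among those that fell Rragd, a Rag GTPase that docks mTORC1 on the lysosome, changed most (−2.28 ± 0.40, edgeR adjusted p = 0.000824). Its PBS libraries held 22.0, 27.3 and 9.88 CPM and its LPS libraries 4.44, 4.50 and 3.19 CPM. Flcn, Lamtor4, Akt1s1 and Tsc1 were the others called lower, with log2 changes from −1.28 to −0.60, and of these Akt1s1 and Tsc1 encode inhibitors of mTORC1 signalling. Among 10 autophagy genes with reported TFEB binding, 1 was called higher and 3 lower, against the same shares of all genes. Those called lower were led by Atg9b (−4.85 ± 0.79) and Vps18 (−0.80 ± 0.11), a subunit of the complexes that tether vesicles to the lysosome. Atg9b had 5, 4 and 1 reads in the LPS libraries and at most 6.145 CPM in any library. Neither list was called clearly more often than genes at large.

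Of the 10 proteases, 2 were called higher with LPS and none lower, against 18.3% of all genes tested called higher and 20.2% lower. Ctsc (cathepsin C, dipeptidyl peptidase 1), which activates granule serine proteases by trimming their ends, lies at chr7:88278085-88310888 on the plus strand. It was at 386, 416 and 670 CPM in PBS and at 2928, 3186 and 4824 CPM with LPS. All 3 LPS libraries exceeded every PBS library by far, a 7.43-fold rise (log2 2.89 ± 0.32, edgeR adjusted p = 3.77e-05), and the change was alike within the library sets (2.92, 2.94 and 2.85). Ctsc was highest in set 3, where the neutrophil and granule precursor markers also peaked. Those 9 markers were present in every library and summed to 78.9 to 319.5 CPM with PBS and 123 to 565 CPM with LPS. None was called changed, against 38.5% of all genes tested. With the library set as a block 4 were called higher and none lower, against 2939 of 14308 genes higher and 3439 lower. The part of these markers in the level of Ctsc was not tested. Ctsz (cathepsin Z), a carboxypeptidase that also binds integrins, went from 677, 671 and 681 CPM to 1237, 1366 and 1340 CPM. The groups were far apart relative to their spread (0.96 ± 0.10, edgeR adjusted p = 2.95e-05), but under total counts the change was 0.30 and the call was lost.

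Ctsh, an aminopeptidase, held 120, 134 and 219 CPM with PBS and 215, 231 and 391 CPM with LPS, so that the groups overlapped across sets. Its change was 0.82 ± 0.36 (edgeR adjusted p = 0.0873), yet within each set the difference was 0.84, 0.78 and 0.84, and the fit with library set as a block called it (edgeR adjusted p = 1.1e-06), as did DESeq2 without a block (adjusted p = 0.046). Ctsh too was highest in set 3. The remaining proteases were not called: the abundant Ctsb (16470 to 18150 CPM in PBS and 19680 to 19980 CPM with LPS) changed by 0.18 ± 0.15, and Ctsd by −0.17 ± 0.15. Ctsa, the protective protein of 2 glycosidases, changed by 0.11 ± 0.10, the tripeptidyl peptidase Tpp1 by 0.07 ± 0.12, the asparaginyl endopeptidase Lgmn by 0.05 ± 0.15 and Ctsl by −0.01 ± 0.18. Ctsk, at 3.75 to 5.83 CPM with PBS and 6.05 to 7.92 CPM with LPS, changed by 0.44 ± 0.22 (edgeR adjusted p = 0.122). Ctsb shares 12.8% of its exon bases with Fdft1 on the opposite strand and Ctsl 26.8% with the antisense Gm47123, and whether the counting used strand was not given in the sources used here.

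Proteins that restrain cathepsins or granzyme B were listed as context, and 6 of 9 were expressed highly enough to be tested. With LPS 2 were called higher and 1 lower, against 38.5% of all genes called in either direction. Cst7 (cystatin F), an inhibitor targeted to endosomes and lysosomes where it acts on Ctsc, rose from 1.005, 0.702 and 0.573 CPM to 25.3, 32.1 and 38.5 CPM, which is 5.37 ± 0.33 on the log2 scale (edgeR adjusted p = 1.09e-06). Serpinb9, the inhibitor of granzyme B, rose by 1.47 ± 0.31.

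Of the 8 glycosidases, none was called higher and 1 lower, against 18.3% and 20.2% of all genes tested. Galc, which removes galactose from the myelin lipid galactosylceramide, fell from 179, 183 and 136 CPM to 100, 111 and 78.8 CPM, with every LPS library below every PBS library (−0.78 ± 0.19, edgeR adjusted p = 0.00565). The call was lost without library set 1 (adjusted p = 0.0753) or set 2 (adjusted p = 0.0594), where only 2 libraries a condition remained, at nearly the same size of change (−0.75 and −0.81). Manba (beta-mannosidase) showed a like difference, from 65.3, 70.3 and 43.5 CPM to 44.8, 37.0 and 22.9 CPM, but its groups overlapped across sets (−0.77 ± 0.32, edgeR adjusted p = 0.073), and the call was made with the library set block (edgeR adjusted p = 1.26e-05). Gla, the alpha-galactosidase whose promoter is shown above, passed the adjusted p but not the 1.5-fold minimum (0.32 ± 0.12, edgeR adjusted p = 0.0434). The ganglioside hydrolases Hexa (0.05 ± 0.10) and Glb1 (0.23 ± 0.12), the glycogen-degrading Gaa (0.11 ± 0.16), Gusb (−0.19 ± 0.21) and Man2b1 (0.18 ± 0.23) were not called.

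Among the 8 sulfatase, lipid enzymes and activators, 1 was called higher, against 18.3% of all genes tested. Npc2, which hands cholesterol from the lysosomal lumen to the membrane protein Npc1, rose from 1096, 1146 and 1344 CPM to 1937, 2058 and 2764 CPM, with no overlap (0.91 ± 0.19, edgeR adjusted p = 0.00237). Without library set 2 the change was 0.95 and the adjusted p 0.0651, and under total counts the change was 0.25, below the fold minimum. Npc1 itself, in the list of other lysosomal membrane proteins, was called lower (−0.72). Lipa, the acid lipase that frees cholesterol from its esters, held 1652, 1996 and 1729 CPM with PBS and 1330, 1414 and 1123 CPM with LPS. It lay lower in every LPS library but under the fold minimum (−0.48 ± 0.17, edgeR adjusted p = 0.0388). Grn was higher in every LPS library (2242 to 2575 against 3107 to 3553 CPM) and under it as well (0.43 ± 0.15, edgeR adjusted p = 0.0329). The arylsulfatase Arsa (−0.12 ± 0.23), the ceramidase Asah1 (0.13 ± 0.10), Smpd1 (−0.08 ± 0.29), Psap (0.05 ± 0.17) and the ganglioside activator Gm2a (0.12 ± 0.17) were not called.

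Of the 7 membrane proteins, 3 were called higher with LPS and none lower, against 18.3% and 20.2% of all genes tested. Clcn7, a chloride-proton exchanger of the lysosomal membrane (chr17:25133391-25162104 in GRCm38, plus strand), rose from 190, 207 and 172 CPM to 628, 733 and 641 CPM. This 3.52-fold difference (1.82 ± 0.12) had the smallest adjusted p among the members (edgeR, 1.28e-06) and was 1.73, 1.83 and 1.89 within the sets. Lamp2, which guards the membrane and takes part in autophagosome fusion, rose from 677, 723 and 587 CPM to 1164, 1191 and 1272 CPM (0.87 ± 0.12, edgeR adjusted p = 0.000196), a change that was 0.21 and not called under total counts. Its relative Lamp1, at 1769 to 2122 CPM with PBS and 2311 to 2444 CPM with LPS, changed by 0.26 ± 0.13 (edgeR adjusted p = 0.119). Scarb2 (LIMP-2), the receptor that carries glucocerebrosidase to the lysosome, went from 115, 128 and 120 CPM to 182, 181 and 218 CPM (0.68 ± 0.11, edgeR adjusted p = 0.000584), and without LPS replicate 3 the change of 0.58 fell just under the fold minimum. Under total counts Scarb2 changed by 0.02 (edgeR adjusted p = 0.891). The tetraspanin Cd63 (0.15 ± 0.14), Cd68 (0.09 ± 0.11) and Mcoln1 (−0.14 ± 0.17) were not called, and Cd63 shares 11.02% of its 50-base words with Cd63-ps.

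**Figure D4:**
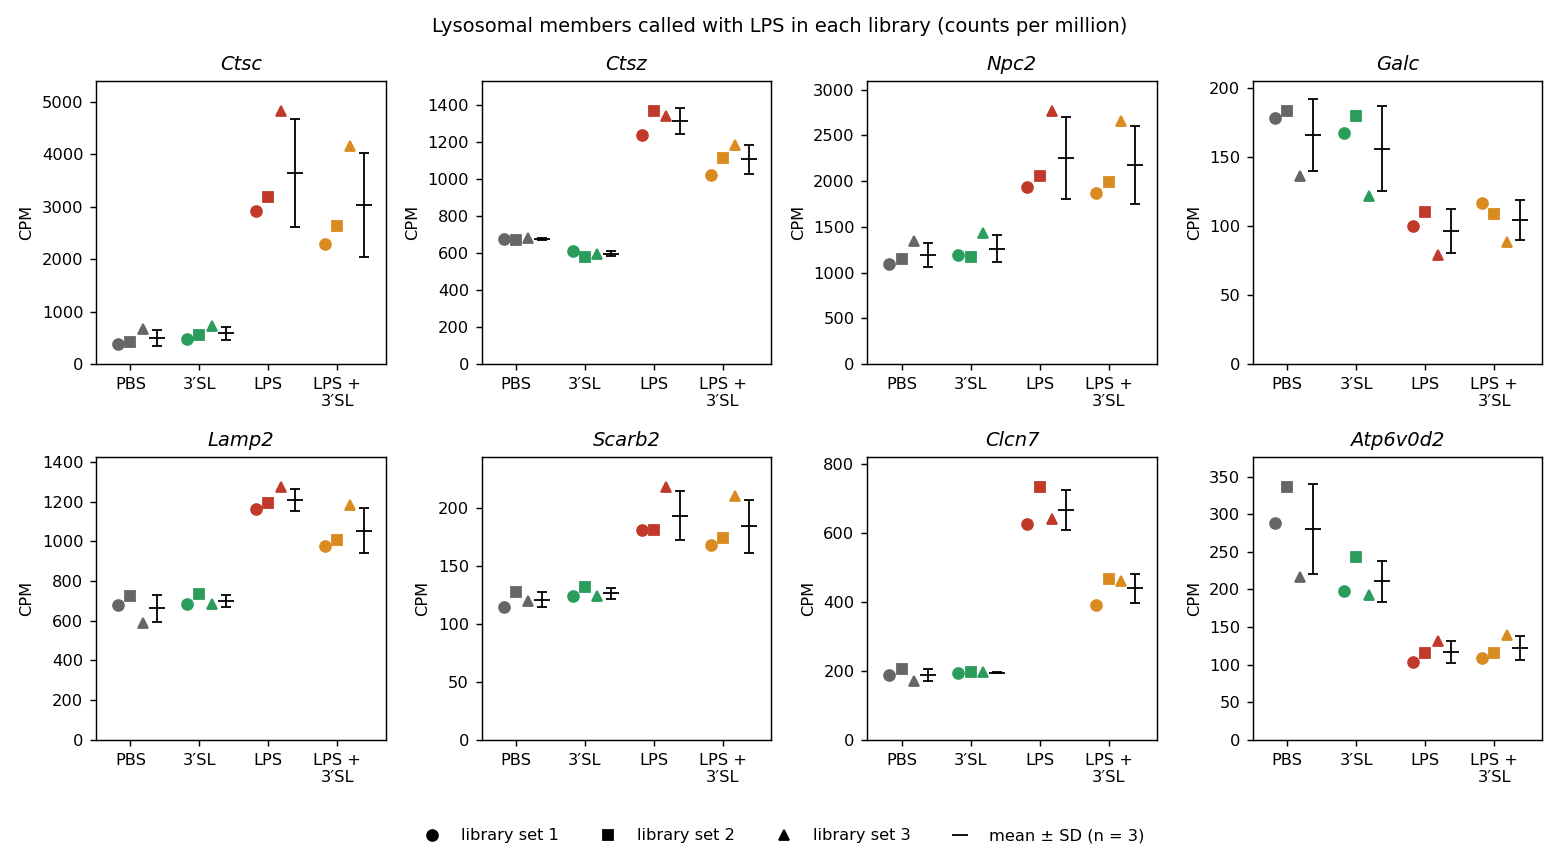
CPM of the 8 called members outside the TFEB family in each library by condition, with marker shapes for the library sets and bars for mean ± SD (n = 3); every axis starts at 0. The PBS and LPS libraries do not overlap in any panel, and the LPS + 3′SL libraries of Clcn7 (391.7 to 467.5 CPM) lie between those of PBS and LPS.

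Of the 6 proton pump genes, 1 was called and it fell, against 38.5% of all genes tested called in either direction. Atp6v0d2, the d2 form of a subunit in the membrane sector that joins it to the stalk, abundant in osteoclasts and some macrophages (chr4:19876841-19922605, minus strand), went from 288, 336 and 217 CPM to 104, 115 and 132 CPM. LPS libraries lay below all PBS libraries (−1.26 ± 0.17, edgeR adjusted p = 0.000167). Of 8 osteoclast markers, 6 were tested, and 1 was called higher and 2 lower with LPS, against 38.5% of all genes called. Their summed level was 223 to 319 CPM with PBS and 268 to 336 CPM with LPS, and their part in the fall of Atp6v0d2 was not tested. The widely expressed d1 form, Atp6v0d1, held 161, 150 and 113 CPM with PBS and 188, 187 and 141 CPM with LPS (0.29 ± 0.16, edgeR adjusted p = 0.177). In the cytosolic sector, the nucleotide-binding Atp6v1b2 was higher in every LPS library (548 to 674 against 824 to 980 CPM, 0.53 ± 0.13, edgeR adjusted p = 0.00597), just under 1.5-fold. DESeq2, whose estimate was 0.59, called it. The regulatory Atp6v1h differed by 0.34 ± 0.10 (edgeR adjusted p = 0.0147), the catalytic Atp6v1a by −0.22 ± 0.15, and the accessory Atp6ap1 by 0.11 ± 0.12.

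The other V-ATPase subunits showed changes in both directions. Of 12 such genes, 4 were called higher and 2 lower. Among the a subunits of the membrane sector, which place the pump in particular compartments, Atp6v0a1 fell (458, 483 and 442 CPM to 177, 186 and 124 CPM, −1.51 ± 0.17, edgeR adjusted p = 3.98e-05) while Tcirg1, the a3 form, rose by 1.119 ± 0.26 and Atp6v0a2 by 0.89 ± 0.12. In the stalk, Atp6v1e1 rose by 1.21 ± 0.10 (181.5, 180.8 and 180.8 CPM to 381, 431 and 441 CPM). Of 28 other lysosomal enzymes 5 were called higher and 4 lower, led by Acp5, the tartrate-resistant phosphatase (3.43 ± 0.46), and Sgsh, the heparan sulfamidase (−2.61 ± 0.43). Of 19 other membrane proteins 5 were called in each direction, led by the sialomucin Cd164 (1.96 ± 0.24) and the endolysosomal cation channel Tpcn1 (−1.92 ± 0.22). Of 10 sorting genes 1 was called higher and 2 lower: the mannose 6-phosphate receptor M6pr rose by 0.98 ± 0.14, and the adaptor Gga2 fell by 1.59 on the log2 scale. All of these are edgeR calls against the same 38.5% of genes called.

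Setting the promoter words beside the changes, the 12 members with TCACGTG changed between −0.22 and 1.82 with LPS, and 1 of them, Clcn7, was called. The 24 members with a window but without the word changed between −1.35 and 2.89, and 7 were called higher and 2 lower. Of all genes tested, 18.3% were called higher and 20.2% lower. The medians were 0.11 in both sets of members.

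LPS was also compared in the presence of 3′SL, that is LPS + 3′SL minus 3′SL, which shares no library with LPS minus PBS. Of the 42 members 7 were called higher and 1 lower (19.0%), against 29.2% of all genes tested (14.3% higher and 14.8% lower). Ctsc rose from 485, 547 and 717 CPM with 3′SL to 2299, 2626 and 4159 CPM with both (2.38 ± 0.32, edgeR adjusted p = 0.00019), and Ctsz from 609, 581 and 597 CPM to 1024, 1112 and 1183 CPM (0.89 ± 0.10). Both sets of libraries were again far apart. Clcn7 rose from 194, 196 and 197 CPM to 391.7, 467.5 and 461.3 CPM (1.17 ± 0.11, edgeR adjusted p = 2.53e-05), Mitf from 91.7, 104 and 141 CPM to 212, 236 and 243 CPM (1.04 ± 0.15), and Npc2 by 0.78 ± 0.19. Lamp2 changed by 0.59 ± 0.12, so near the fold minimum that leaving out 3′SL replicate 1 (0.57) or LPS + 3′SL replicate 3 (0.50) ended the call, as did leaving out any library set. Under total counts the changes of Ctsz (0.41), Npc2 (0.29), Lamp2 (0.10), Mitf (0.57) and Atp6v1b2 (0.35) were below the fold minimum. Npc2 also lost its call without library set 1 (edgeR adjusted p = 0.0665) or set 2 (0.137).

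Atp6v1b2, under the fold minimum in the absence of 3′SL, was called here: 443, 512 and 435 CPM with 3′SL against 763, 907 and 794 CPM with both (0.83 ± 0.13, edgeR adjusted p = 0.000574). Atp6v0d2 fell from 198, 243 and 192 CPM to 109, 116 and 140 CPM (−0.79 ± 0.17, edgeR adjusted p = 0.00439), a call lost without library set 1 (−0.76, adjusted p = 0.0711) or set 2 (−0.65, adjusted p = 0.101). Tfeb, at 30.0, 33.7 and 34.3 CPM with 3′SL and 20.2, 21.7 and 24.2 CPM with both, was lower in every library but under the fold minimum (−0.57 ± 0.13, edgeR adjusted p = 0.00665). Galc (−0.58 ± 0.19, edgeR adjusted p = 0.0326) and Scarb2 (0.54 ± 0.11, edgeR adjusted p = 0.00333) were likewise just under it, and Tfe3 changed by 0.29 ± 0.22. Among the context genes Tfec rose by 1.67 ± 0.30, Cst7 by 4.51 ± 0.32, Acp5 by 2.97 ± 0.46, Cd164 by 1.54 ± 0.23, Tcirg1 by 1.28 ± 0.26, Atp6v0a2 by 1.005 ± 0.12 and Serpinb6b by 0.74 ± 0.19. Those called lower included Sgsh (−2.17 ± 0.43), Rragd (−2.28 ± 0.40), Atg9b (−2.45 ± 0.67), Tpcn1 (−1.42 ± 0.22), Gga2 (−1.15 ± 0.36), the clathrin adaptor subunit Ap1s2 (−0.95 ± 0.17) and the autophagosome protein Wipi1 (−0.86 ± 0.18).

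The estimated change with 3′SL in quiescent cells was under 1.5-fold for every member. None of the 42 was called, nor was any of the 14308 genes (0%) by edgeR, and DESeq2 called none of the members and 0.615% of all genes. Without adjustment (p under 0.05, same fold minimum) 620 genes passed but no member did. With the library set block 2.84% of genes were called and again no member. The log2 changes ran from −0.41 to 0.35, and 34 of the 42 were below 0.25 in size. In 4 members all 3′SL values were below all PBS values, against 8.53% of all genes lower and 9.02% higher without overlap. They were Ctsl (2426 to 2622 CPM with PBS, 1881 to 2192 CPM with 3′SL, −0.31 ± 0.18), Ctsz (−0.18 ± 0.10), Atp6v1b2 and Tfeb (−0.19 ± 0.13). Atp6v1b2, at 619, 674 and 548 CPM with PBS and 443, 512 and 435 CPM with 3′SL, changed by −0.41 ± 0.13 (edgeR adjusted p = 0.365), and with the block its adjusted p was 0.0129 at a change under 1.5-fold. Atp6v0d2 changed by −0.41 ± 0.17 with overlapping libraries. Tfe3 had the largest positive value, 0.35 ± 0.23 (143, 151 and 230 CPM with 3′SL).

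Outside the members, Tfec held 44.2, 46.2 and 86.7 CPM with 3′SL, above the 25.2 to 27.7 CPM of PBS in every library. Its change of 1.14 ± 0.30 was not called by edgeR (adjusted p = 0.312), but was called by DESeq2 (adjusted p = 0.0356) and with the library set block (edgeR adjusted p = 0.00498). The 3′SL library of set 3 stood apart from the other 2 for this gene.

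Adding 3′SL to LPS, the comparison at the center of the study, again left no member called by edgeR, and 0% of all genes. The study, at a 1.5-fold difference and a false discovery rate under 0.05, reports genes altered by 3′SL with LPS and under basal conditions. The legend of its figure on these genes names a P under 0.05 as the cutoff and no false discovery rate. The main edgeR fit here, without a term for the library set, called none in either comparison. DESeq2 called 1 member, Clcn7, lower and 0.79% of all genes, and the edgeR fit with the library set block called Clcn7 lower and Tfeb higher and 1.45% of all genes. Clcn7 and Tfeb were also the members that passed without adjustment of p (402 genes in all), and both were called when library set 3 was left out (149 genes in all). Clcn7 stood at 628, 733 and 641 CPM with LPS and 391.7, 467.5 and 461.3 CPM with LPS + 3′SL, without overlap and with differences of −0.68, −0.65 and −0.47 within the sets (−0.60 ± 0.11, edgeR adjusted p = 0.152, with the block 0.00486, DESeq2 adjusted p = 1.43e-05). Tfeb stood at 12.2, 14.7 and 17.1 CPM with LPS and 20.2, 21.7 and 24.2 CPM with LPS + 3′SL, every value higher, with differences of 0.73, 0.56 and 0.50 (0.59 ± 0.14, edgeR adjusted p = 0.2, with the block 0.0069). DESeq2 gave Tfeb an adjusted p of 0.0265 at a change just under the fold minimum.

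The other 40 members changed between −0.51 and 0.18. All 10 proteases and all 7 membrane proteins had negative estimates, with medians of −0.10 and −0.09 against −0.01 for all genes, but scaling by total counts raised the median of all genes to 0.08 and left 11 of the 42 members below 0 in place of 30. Without overlap, 8 members were lower with 3′SL (against 6.5% of all genes) and 2 higher (against 6.24%). The lower ones were Ctsb, Ctsk, Ctsz, Gla, Lamp1, Clcn7, Atp6v1h and Mitf, and the higher ones Hexa and Tfeb. Mitf changed by −0.31 ± 0.15 (262, 295 and 301 CPM with LPS, 212, 236 and 243 CPM with both), Ctsz by −0.25 ± 0.10 and Ctsk, at under 8 CPM, by −0.51 ± 0.22. Tfe3 (−0.03 ± 0.22) and Atp6v0d2 (0.06 ± 0.17) were close to 0. Of the context genes, Atp6v0a1 was higher in every library with both agents (280, 307 and 219 CPM against 177, 186 and 124 CPM with LPS, 0.73 ± 0.17, edgeR adjusted p = 0.2), and both the block (0.00359) and DESeq2 (0.00586) called it. Acp5 changed by −0.70 ± 0.42 and was called only with the block among these 3 fits (edgeR adjusted p = 0.00677).

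**Figure D5:**
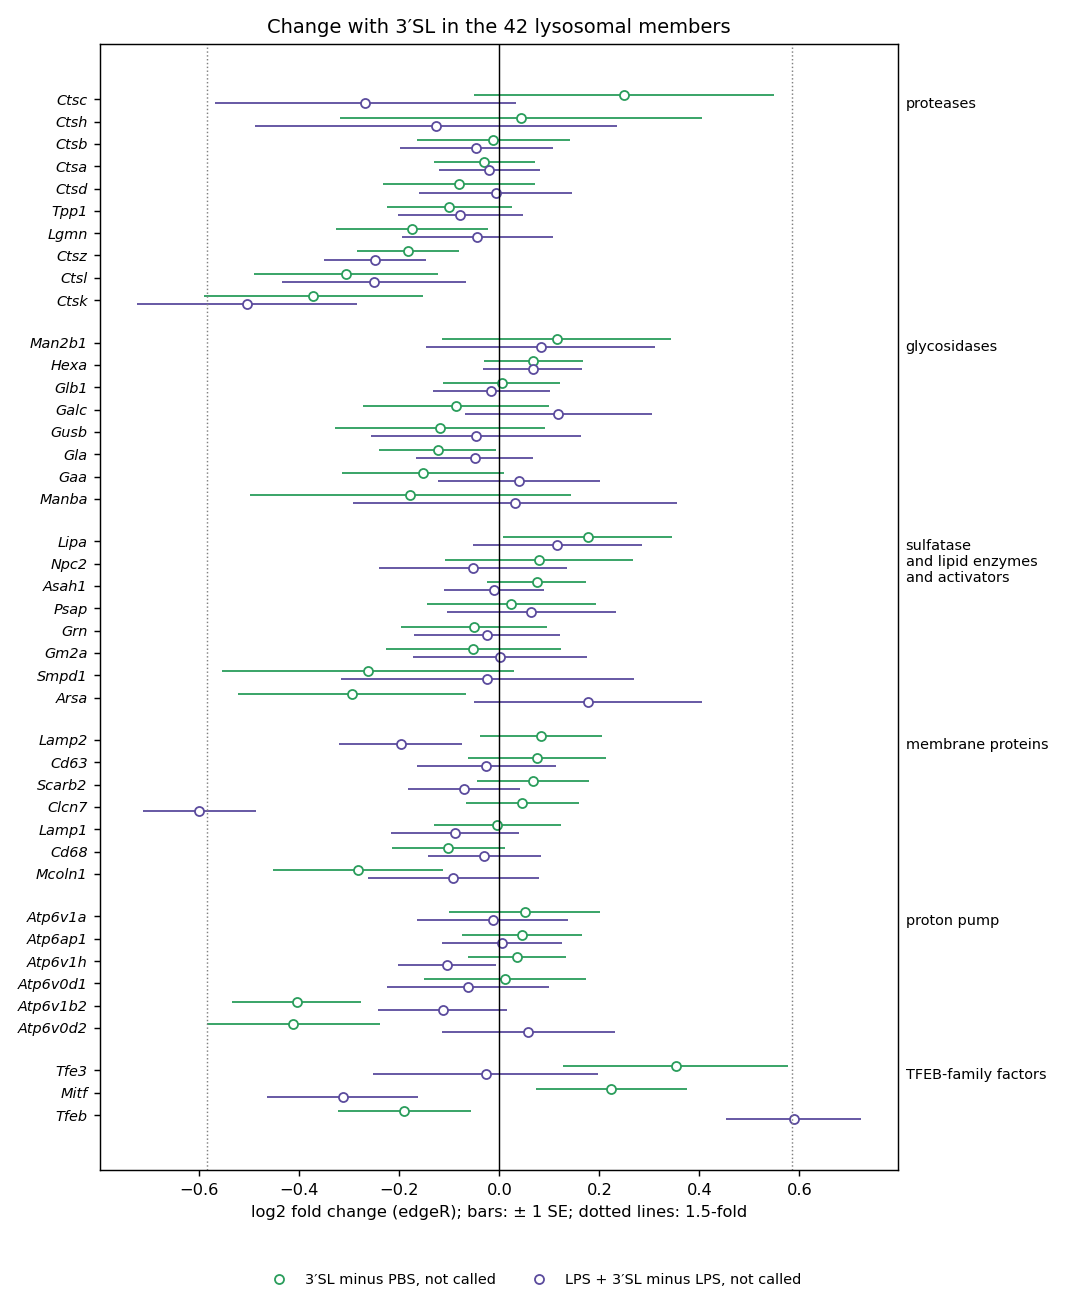
Log2 fold change (± 1 SE, edgeR fit over 12 libraries) of each member for 3′SL minus PBS (green) and for LPS + 3′SL minus LPS (purple), by role, with dotted lines at 1.5-fold. No member is called, most values lie within 0.25 of 0, and Clcn7 (−0.60) and Tfeb (0.59) with LPS reach the dotted lines.

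Whether 3′SL acted differently with and without LPS was tested as an interaction. Neither a member nor any other gene was called by edgeR (0% of genes), while 567 genes passed without adjustment of p, among them Clcn7 and Tfeb. For Clcn7 the effect of 3′SL was lower with LPS by 0.65 ± 0.16 (edgeR adjusted p = 0.579, with the block 0.0249, DESeq2 adjusted p = 0.00919), with values of −0.72, −0.57 and −0.66 in the 3 sets. For Tfeb it was higher with LPS by 0.78 ± 0.19 (edgeR adjusted p = 0.579, with the block 0.0153, DESeq2 adjusted p = 0.092), with 0.93, 0.72 and 0.71 in the sets. The block called 1.55% of all genes and DESeq2 0.308%. Mitf (−0.54 ± 0.21, with the block 0.069) and Atp6v0d2 (0.47 ± 0.24) were not called by any of the 3 fits.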

How the data were processed

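RNA was poly(A)-selected and made into stranded libraries. Whole-number read counts by gene, not normalized, were deposited by the authors in 1 table for each of the 12 libraries. The submitters' processing notes name FastQC, Trimmomatic, STAR, HTSeq and DESeq2, while versions, genome build, annotation and strand setting were not given in the sources used here. Of 43626 identifiers, 42462 matched GENCODE M21 (GRCm38), from which symbols, positions and exon lengths (union over isoforms) were taken. Lines that name no gene (33.2% to 37.1% of all counts) were left out.

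Counts were fitted with edgeR 4.0.16 (R 4.3.3; filterByExpr, TMM, 1 mean per condition, all 12 libraries, quasi-likelihood test, Benjamini-Hochberg over 14308 genes). The steps were run on simulated counts with a fixed spread and no library set effect, which differs from these data. Alternatives were DESeq2 1.42.0, 2 other scalings, 2 other filters, the library set as a block, only the conditions compared, and leaving out each library or set. The set is read from running numbers in the titles, and same-set libraries deviated together (lowest r within a set 0.449). Members and lists were chosen with earlier results of these data known. Every member is given, and for context lists the 2 called genes of largest change without overlap. Other context genes named (Flcn, Lamtor4, Akt1s1, Tsc1, Npc1, Sqstm1, and Tcirg1 and Atp6v0a2 for LPS minus PBS, Atp6v0a1 and Acp5 for LPS + 3′SL minus LPS) were singled out after their values were seen.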

Additional observations from a re-analysis of the deposited data

Results flagged for a closer look

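Among the members and Tfec, there were 3 genes whose interaction was called in at least 1 fit, that is, the effect of 3′SL with LPS differed from its effect without LPS (222 of all genes were called with the library set block and 44 by DESeq2). Clcn7 (interaction −0.65, log2) and Tfeb (0.78) were past the threshold with the library set block (edgeR adjusted p = 0.0249 and 0.0153) and not in the edgeR fit without it (0.579 for both). The 3′SL estimates of Tfeb had opposite signs, 0.59 ± 0.14 with LPS and −0.19 ± 0.13 without, the latter called in no fit and with nearly touching libraries (at most 34.31 CPM with 3′SL, at least 34.51 CPM with PBS). Tfec (−1.09), at 44.2 to 86.7 CPM with 3′SL against 25.2 to 27.7 CPM with PBS, and at 136 to 257 CPM with LPS + 3′SL against 141 to 228 CPM with LPS, had adjusted p = 0.746 without and 0.0331 with the block (edgeR).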

How the results depend on the processing

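Scaling by total counts turned the most calls. For LPS minus PBS it gave 3 members called higher and 14 lower, with 8192 of 14308 genes called in all. With the library set block added the members called were 3 and 16, with 9098 genes called in all. Lgmn (−0.61 and −0.60), Hexa (−0.60 and −0.61) and Psap (−0.60 and −0.60) were then called lower under total counts without and with the block, and Tpp1 (−0.59) with the block. For LPS + 3′SL minus 3′SL the same settings gave 2 and 2 members higher, and 5 and 7 lower. Genes called were 6206 under the first and 7422 under the second. Ctsc, Clcn7, Atp6v0d2, Tfeb and Mitf kept their LPS call under every alternative run, and Ctsc and Clcn7 did so for LPS + 3′SL minus 3′SL.

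The library sets mattered most where 3′SL was tested. No member was called for 3′SL minus PBS under any alternative run, while genes called were 88 with DESeq2, 406 with the replicate block by library set, 365 with block and total counts, 648 with the block in DESeq2, 87 without library set 3 and 620 without adjustment of p. For LPS + 3′SL minus LPS, 1 member was called higher (Tfeb) with the block, block and total counts, the block in DESeq2, without set 3 and without adjustment, and 1 lower (Clcn7) in DESeq2, with the block, the block in DESeq2, without set 3 and without adjustment. Genes called there were 1 with DESeq2-style size factors, 1 with total counts, 113 with DESeq2, 2 with all genes of at least 1 count, 207 with the block, 218 with block and total counts, 284 with the block in DESeq2, 149 without set 3 and 402 without adjustment. In the interaction 1 member was called higher with the block, block and total counts, the block in DESeq2 and without adjustment, and 1 lower in DESeq2, with the block, the block in DESeq2 and without adjustment, with 44, 222, 136, 506, 44 and 567 genes called under DESeq2, the block, block and total counts, the block in DESeq2, without set 3 and without adjustment. For LPS + 3′SL minus 3′SL, members called lower were 2 with at least 10 counts in every library, 0 without set 1, 0 without set 2, 2 without set 3 and 4 with no fold minimum. Without set 2 the genes called were 3516 for LPS minus PBS and 2183 for LPS + 3′SL minus 3′SL. The causes were not tested.

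Leaving out single libraries gave 6 to 9 members higher, 3 to 4 lower and 4665 to 5748 genes for LPS minus PBS, and 6 to 8, 1 to 3 and 3433 to 4387 for LPS + 3′SL minus 3′SL. For LPS + 3′SL minus LPS it gave 0 members and 0 to 8 genes (8 without 3′SL replicate 3, 1 without PBS replicate 3), and for 3′SL minus PBS and the interaction 0 to 0 of either. With 3 libraries a condition, a miss of the threshold does not show that values are equal, and genes under 10 CPM such as Ctsk rest on few reads.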

Other observations

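Sqstm1, the autophagy receptor p62 and one of the autophagy genes with reported TFEB binding, held 912, 833 and 2791 CPM with 3′SL in sets 1, 2 and 3, against 545, 516 and 852 CPM with PBS. The set 3 library with 3′SL stood apart, and this gene was singled out after its values were seen. Its change of 1.25 ± 0.41 (log2, SE) was not called by edgeR (adjusted p = 0.385) or DESeq2 (adjusted p = 0.12) and was called with the library set block (edgeR adjusted p = 0.0385). With LPS it held 1167, 1204 and 1086 CPM, and with LPS + 3′SL 1089, 1107 and 1509 CPM. In the same 3′SL library of set 3 the lipase Lipa stood at 2526 CPM, against 1652 to 1996 CPM with PBS, and Serpinb9 at 51.8 CPM, against 18.7 to 19.7 CPM. That library also had the most unaligned reads (795572, against 298803 to 666144 in the others). It had the most reads of too low alignment quality as well (26143, against 9515 to 20138). The part of these differences in the levels was not tested.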
